A study of Mus musculus with 2 samples.

Results

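Of 2941 annotated mouse genes of the snRNA, snoRNA and scaRNA types, 75 were detected in nucleoplasmic RNA of bone-marrow-derived macrophages. A gene counted as detected when its expected counts, the fractional read counts that the deposited tables assign to a gene, summed to 20 or more over both libraries. The members were thus chosen by the same counts that are described here, so levels are given as a description. The 75 genes comprised 32 of 1383 snRNA, 36 of 1507 snoRNA and 7 of 51 scaRNA genes, and 188 of the 2941 had any count at all. The gene tables held 55536 mouse genes in all.

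The cells were macrophages grown from the bone marrow of C57BL/6J mice and exposed to 100 ng/ml lipid A for 20 min. Lipid A is the part of bacterial lipopolysaccharide that the receptor TLR4 senses. Total RNA of the nucleoplasm, which is the nucleus without its chromatin, was depleted of ribosomal RNA and sequenced in a single group of 2 biological replicates. The library of replicate 1 started from 1 µg and that of replicate 2 from 500 ng of RNA, and the labels give 250 to 400 as the size range of both. Both carry one donor identifier, and nothing says whether they came from separate cultures or animals, so the spread between them may be technical. Age and sex were not collected. No unstimulated cells and no other cell fraction were analysed here. No effect of lipid A could therefore be tested, and each ratio below sets replicate 1 over replicate 2, with no p-value.

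Small nuclear RNAs are the RNA parts of the spliceosome. U1 pairs with the start of an intron and U2 with its branch point, and U12 takes the place of U2 in the minor spliceosome, which removes a rare class of introns. Box C/D snoRNAs guide 2′-O-methylation of other RNAs and box H/ACA snoRNAs guide pseudouridylation, mostly of ribosomal RNA in the nucleolus. A few, such as U3 and U17, are needed for cleavage of the ribosomal precursor instead. Cajal-body RNAs (scaRNAs) guide the same modifications of spliceosomal RNAs in Cajal bodies, which lie in the nucleoplasm. Most vertebrate snoRNAs and scaRNAs are cut from introns of host genes, whereas U1, U2 and U3 have promoters of their own and many near-identical gene copies.

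The sequences below carry the spliceosomal results, since copies that differ by a base or not at all share reads. They are GENCODE M21 transcripts of the mm10 build, written in DNA letters from the 5′ end. Rnu1a1 lies on chr11:87422867-87423030, plus strand, Gm22513 on chr12:54696782-54696945, plus strand, and Gm22614 on chr3:96488729-96488893, plus strand. Rnu2-10 lies on chr11:101658238-101658428, plus strand, Gm23444 on chr11:83271498-83271688, plus strand, and Gm25939 on chr1:72255008-72255198, plus strand. Rnu12 lies on chr15:83149644-83149794, plus strand, Gm24265 on chr5:115489459-115489599, plus strand, and Gm24407 on chr5:115490254-115490394, plus strand. In Rnu1a1, Rnu2-10, Rnu12 and Gm24265 the capitals mark the letters ATTTTTG or ATTTGTG, forms of the site where the ring of Sm proteins binds. In Gm22513 and Gm22614 they mark bases that differ from Rnu1a1, in Gm23444 and Gm25939 bases that differ from Rnu2-10, and in Gm24407 bases that differ from Gm24265.
Rnu1a1: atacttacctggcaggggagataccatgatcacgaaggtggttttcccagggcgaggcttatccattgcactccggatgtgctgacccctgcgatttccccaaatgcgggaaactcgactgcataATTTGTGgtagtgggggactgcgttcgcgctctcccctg
Gm22513: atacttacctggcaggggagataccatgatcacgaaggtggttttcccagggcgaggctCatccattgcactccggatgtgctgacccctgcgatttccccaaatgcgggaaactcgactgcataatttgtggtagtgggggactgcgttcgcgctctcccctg
Gm22614: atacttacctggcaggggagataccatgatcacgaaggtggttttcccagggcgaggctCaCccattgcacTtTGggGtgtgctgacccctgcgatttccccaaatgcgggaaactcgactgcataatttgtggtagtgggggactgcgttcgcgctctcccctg
Rnu2-10: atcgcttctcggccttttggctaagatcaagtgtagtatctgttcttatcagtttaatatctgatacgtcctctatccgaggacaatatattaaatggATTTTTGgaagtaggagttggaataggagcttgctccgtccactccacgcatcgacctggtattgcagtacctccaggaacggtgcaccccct
Gm23444: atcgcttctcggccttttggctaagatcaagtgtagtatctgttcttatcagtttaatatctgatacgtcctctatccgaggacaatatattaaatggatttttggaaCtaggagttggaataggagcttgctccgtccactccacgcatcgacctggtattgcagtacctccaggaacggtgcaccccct
Gm25939: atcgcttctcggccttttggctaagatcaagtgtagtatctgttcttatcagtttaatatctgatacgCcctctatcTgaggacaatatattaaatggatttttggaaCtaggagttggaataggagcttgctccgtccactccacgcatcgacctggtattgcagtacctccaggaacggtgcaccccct
Rnu12: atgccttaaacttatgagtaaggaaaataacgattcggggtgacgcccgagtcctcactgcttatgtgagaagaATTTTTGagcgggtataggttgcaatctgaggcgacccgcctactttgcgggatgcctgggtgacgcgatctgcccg
Gm24265: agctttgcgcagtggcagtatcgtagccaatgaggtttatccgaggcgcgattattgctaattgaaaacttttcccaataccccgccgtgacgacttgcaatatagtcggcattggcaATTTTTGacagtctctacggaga
Gm24407: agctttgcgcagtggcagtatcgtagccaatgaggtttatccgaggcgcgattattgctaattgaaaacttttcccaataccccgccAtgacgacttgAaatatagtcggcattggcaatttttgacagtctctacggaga

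Numbered genes, whose Gm symbols give no class, were classed by the best match to a named mouse gene at 80% identity or more over 80% of the length. Of 45 members with numbered symbols, 25 were classed in this way. Counted from 1 at the 5′ end of Rnu1a1, Gm22513 differed by the single substitution T60C and Gm24305 by A26G. Gm22614 carried T60C, T62C, C73T, C74G and A77G and 1 further inserted base. Of the U2 genes, Gm23444 differed from Rnu2-10 by G109C, Gm25939 by T69C, C78T and G109C, and Gm26316 by C170T. Gm24407 differed from Gm24265 by G88A and C99A. The Sm-type letters were found in all 18 U1, 11 U2 and 2 numbered snRNA members and in Rnu12, searched on the transcribed strand. They were also found in 37 of 62 undetected U1 genes, 5 of 6 undetected U2 genes, 70 of 635 undetected numbered snRNA genes, and 8.16% of all 2941 genes.

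Next are U3, U17 and the guide RNAs on which the results turn. Rnu3b1 lies on chr11:87443237-87443452, plus strand, Snord22 on chr19:8725866-8725991, plus strand, Snord15a on chr7:99482785-99482932, minus strand, and Snord17 on chr2:144265979-144266216, minus strand. Snora73b lies on chr4:132352322-132352526, minus strand, and Snora73a on chr4:132352775-132352979, minus strand. Gm22988 lies on chr11:69669635-69669778, minus strand, and Gm25291 on chr11:51737779-51737922, minus strand. Gm22009 lies on chr3:69085105-69085447, minus strand, and Scarna10 on chr6:125186359-125186683, minus strand. In Rnu3b1, Snord22, Snord15a, Snord17, Gm22009 and Scarna10 the capitals mark box C letters (ATGATGA or GTGATGA) and box D letters (CTGA in the last 12 bases) where found. Gm22009 (343 bases) and Scarna10 (325 bases) are given by their first and last 100 bases. In Snora73b and Gm22988 they mark ACA followed by 3 bases to the end. In Snora73a they mark bases that differ from Snora73b, and in Gm25291 bases that differ from Gm22988.
Rnu3b1: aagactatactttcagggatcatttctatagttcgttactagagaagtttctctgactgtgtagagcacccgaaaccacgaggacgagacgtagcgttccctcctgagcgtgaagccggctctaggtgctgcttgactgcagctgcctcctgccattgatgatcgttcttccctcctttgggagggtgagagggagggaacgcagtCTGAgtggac
Snord22: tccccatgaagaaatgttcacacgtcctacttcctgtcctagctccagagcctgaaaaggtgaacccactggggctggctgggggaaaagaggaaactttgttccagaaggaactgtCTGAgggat
Snord15a: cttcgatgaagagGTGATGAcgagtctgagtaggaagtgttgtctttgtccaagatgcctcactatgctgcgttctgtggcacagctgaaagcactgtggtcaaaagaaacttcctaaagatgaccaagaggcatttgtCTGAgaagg
Snord17: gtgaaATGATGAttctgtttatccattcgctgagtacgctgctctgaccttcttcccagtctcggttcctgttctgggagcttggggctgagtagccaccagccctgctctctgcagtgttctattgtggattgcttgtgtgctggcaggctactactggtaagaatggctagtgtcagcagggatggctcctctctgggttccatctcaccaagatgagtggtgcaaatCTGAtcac
Snora73b: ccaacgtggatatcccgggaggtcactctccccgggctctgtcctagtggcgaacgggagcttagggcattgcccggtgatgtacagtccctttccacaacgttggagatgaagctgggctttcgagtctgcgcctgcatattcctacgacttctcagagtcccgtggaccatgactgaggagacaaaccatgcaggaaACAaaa
Snora73a: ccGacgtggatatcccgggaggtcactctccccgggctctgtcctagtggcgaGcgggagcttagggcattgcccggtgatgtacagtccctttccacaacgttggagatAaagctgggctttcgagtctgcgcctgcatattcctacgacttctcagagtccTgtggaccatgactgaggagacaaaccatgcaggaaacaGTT
Gm22988: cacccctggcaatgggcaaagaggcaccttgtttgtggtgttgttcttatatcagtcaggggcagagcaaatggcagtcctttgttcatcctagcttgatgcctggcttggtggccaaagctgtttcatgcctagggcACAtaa
Gm25291: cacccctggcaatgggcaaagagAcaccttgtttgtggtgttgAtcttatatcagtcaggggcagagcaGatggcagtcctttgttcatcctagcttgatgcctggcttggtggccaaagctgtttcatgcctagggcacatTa
Gm22009 bases 1 to 100: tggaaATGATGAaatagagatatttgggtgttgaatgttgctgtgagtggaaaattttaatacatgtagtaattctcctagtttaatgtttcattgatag
Gm22009 bases 244 to 343: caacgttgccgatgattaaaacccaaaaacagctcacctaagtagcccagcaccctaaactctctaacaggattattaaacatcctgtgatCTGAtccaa
Scarna10 bases 1 to 100: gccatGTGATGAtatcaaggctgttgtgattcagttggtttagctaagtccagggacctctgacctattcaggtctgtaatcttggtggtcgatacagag
Scarna10 bases 226 to 325: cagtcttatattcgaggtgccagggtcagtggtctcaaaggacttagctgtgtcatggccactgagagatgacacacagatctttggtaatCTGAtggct

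On the transcribed strand, box C and box D letters together were found in 3 of 14 detected C/D members, the 2 Snord15 genes and Snord17, against 120 of 172 undetected C/D genes. Of these 14 members, 10 were U3 annotations, which list each gene under 2 overlapping identifiers and include identical copies. No U3 annotation was among the 3, and of the other C/D members only Snord22 lacked the pair of boxes. Rnu3b1 and Snord22 held the box D letters but neither of these box C forms. Both boxes were found in 5 of 8 Cajal-body members, including Gm22009 and Scarna10, against 2 of 45 undetected ones, and in 10.6% of all 2941 genes. ACA at its usual distance from the end was found in 5 of 7 H/ACA members and 8 of 14 numbered snoRNA members. Among undetected genes it was found in 89 of 394 H/ACA genes and 174 of 904 numbered snoRNA genes, and among all 2941 genes in 10.7%. A match describes letters only, and a missing one says no more than that these letters were not in the annotated transcript.

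Detection went with length. None of 679 genes of up to 100 bases and none of 1113 genes of 101 to 125 bases was detected, against 18 of 871 genes of 126 to 150 bases. The share was 20 of 186 at 151 to 175 bases, 15 of 54 at 176 to 200 bases, and 22 of 38 above 200 bases. The deposited effective length, the number of positions at which a sequenced fragment could start, moved with this. Its median was 0 in both libraries up to 125 bases, 1.72 bases in replicate 1 and 2.23 in replicate 2 at 126 to 150 bases, and 33.4 and 39.2 bases above 200 bases. An effective length of 0 was listed for 1792 genes in replicate 1, the longest of 125 bases, and 1718 genes in replicate 2, the longest of 122 bases. These genes held 10.8 counts in all in replicate 1 and 3 counts in replicate 2. For short genes in the detected set the TPM, a length-normalised abundance, therefore divides by a few bases: 37 of the 75 members had an effective length under 10 bases in replicate 1 and 19 in replicate 2.

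**Figure D1:**
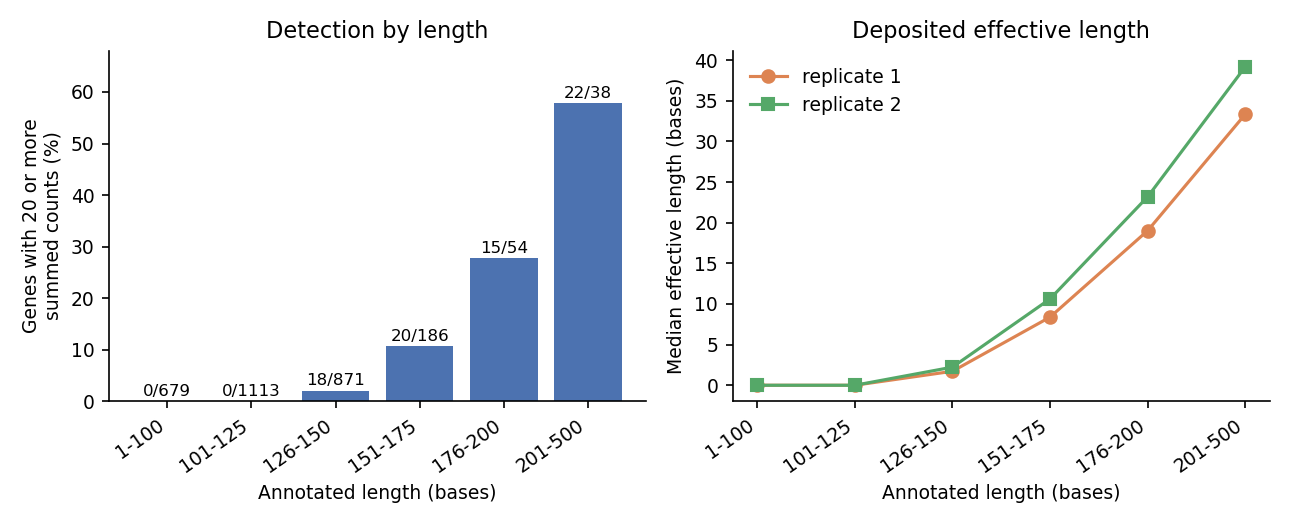
Left, percentage of annotated snRNA, snoRNA and scaRNA genes with 20 or more summed counts, by annotated length in bases, with members over annotated genes above each bar. Right, median deposited effective length in bases of the genes in each length bin, for replicate 1 (circles) and replicate 2 (squares); no gene of up to 125 bases was detected, where the median effective length is 0.

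Classes also differed in the number detected, and were not compared within a length. U1 had 18 detected of 80 annotated genes, U2 had 11 of 17 and U12 had 1 of 4, and 2 of 637 numbered snRNA genes were detected. No gene of the U5 (10), U6 (596), U7 (34) or U11 (5) classes had a count. U5 and U6 belong to the major spliceosome, U7 processes histone mRNAs and U11 belongs to the minor spliceosome. Rnu6, at 107 bases, Rnu7, at 62 bases, and Rnu5g, at 116 bases, had an effective length of 0. Rnu11, at 134 bases, had 0 counts in both libraries at an effective length of 1.98 bases in replicate 1 and 2.56 in replicate 2. At an effective length of 0 a count of 0 does not show that an RNA was absent. Gm26397, with the same effective lengths as Rnu11, had 93 counts in replicate 1 and 44 in replicate 2. Snora31, at effective lengths of 1.48 and 1.91 bases, had 0 counts in both libraries, but 194 and 239 in the second quantification. Rnu11 had 0 there too. Whether the short effective length kept Rnu11 at 0 was not tested. Of the guide RNAs, 14 of 186 C/D, 7 of 401 H/ACA, 8 of 53 Cajal-body and 14 of 918 numbered snoRNA genes were detected. Snord118 (U8) and Snord13 (U13), which act in ribosomal RNA processing, had 0 counts in both libraries.

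At the minimum of 20, the members just inside were Gm25791 with 21.1 summed counts, Gm22442 with 23 and Gm25394 with 24. Just outside were Gm22422 and Gm25848 with 19 each and Snora78 with 17.

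Together the 75 members took 0.403% of all gene counts in replicate 1 (exact Clopper-Pearson 95% interval 0.400% to 0.406%) and 0.541% in replicate 2 (0.537% to 0.544%). The mean was 0.472% ± 0.0973 (SD, n = 2). Library totals were 18194818 counts in replicate 1 and 18667509 in replicate 2, and a gene with 0 counts could reach 0.165 and 0.161 CPM, which are counts scaled to a common library total. No molecular identifiers are mentioned in the labels, so these bounds take in no error other than that of counting. In such bulk RNA, fewer cells and less RNA per cell cannot be told apart. The counts were concentrated: the top member held 16.4% of member counts in replicate 1 and 20.7% in replicate 2, and the top 10 held 64.7% and 57.2%.

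**Figure D2:**
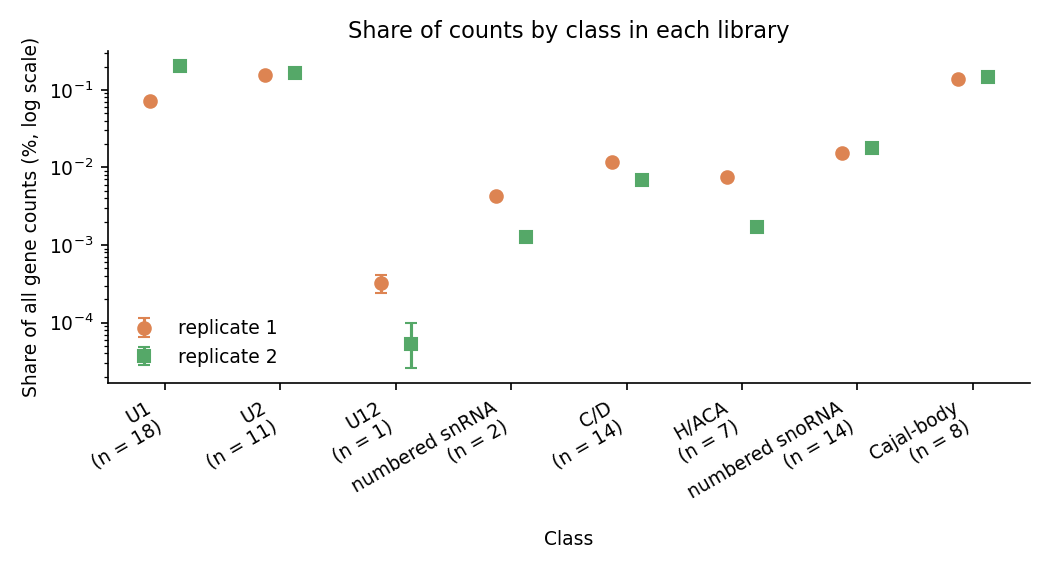
Share of all gene counts (percent, log scale) taken by each class in replicate 1 (circles) and replicate 2 (squares), with exact 95% counting intervals, mostly smaller than the points. U1 is higher in replicate 2 (0.0714% against 0.202%) and H/ACA in replicate 1 (0.00759% against 0.00172%), while U2 and Cajal-body shares are close.

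U1 genes held 0.0714% of the counts of replicate 1 and 0.202% of those of replicate 2. Rnu1a1 and 6 genes of identical sequence (Gm22068, Gm22317, Gm22634, Gm23804, Gm25679 and Gm26444) together had 7569 counts in replicate 1 and 18156 in replicate 2. Each was listed with an equal part, 1081 and 2594 counts, because reads of identical copies cannot be assigned. The deposited credibility interval for the TPM of Rnu1a1 alone in replicate 1 ran from 113 to 13801, so only the sum can be read. Gm22513, which differs by T60C, had 3385 counts in replicate 1 and 10339 in replicate 2, the highest of any U1 annotation. Gm22614 and its identical copy Gm25890 had 1719 and 5878 counts together, Rnu1b6 with its 2 identical copies 114 and 221, and Rnu1b1 with Rnu1b2 30.4 and 143. Every one of these U1 sequences had fewer counts in replicate 1 than in replicate 2.

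U1 genes of the sequence type of Rnu1a1 (11 annotations) had 11131 counts in replicate 1 and 31511 in replicate 2, and those of the Rnu1b type (7 annotations) had 1863 and 6241. The ratio of the first type to the second was 5.98 in replicate 1 and 5.05 in replicate 2, so both libraries were dominated by the first. In mice, U1b RNAs are known as an embryonic form, and U1a as the form of most adult tissues. Gm26244 and Gm24924, single-base variants of Rnu1a1 in introns of Rock1 and Ss18, were listed with 0 counts in replicate 1 and 1299 each in replicate 2. The second quantification listed them at 124 and 125 in replicate 1 and 410 and 273 in replicate 2, so the zero in replicate 1 was not shared by both tables.

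U2 genes held 0.156% of the counts of replicate 1 and 0.165% of those of replicate 2. Rnu2-10 and its identical copies Gm23849, Gm23971 and Gm24950 together had 15309 counts in replicate 1 and 11721 in replicate 2. The pair Gm23444 and Gm23472, which carries G109C, had 4991 and 8504 counts, and Gm25939 had 3345 and 5892. The first set was thus higher in replicate 1 and these variants in replicate 2. Gm24497 had 3273 counts in replicate 1 and 4252 in replicate 2, Gm25360 had 1008 and 441, and Gm26316 had 280 and 9.58. The deposited posterior SD of the count was 1708 for Rnu2-10 and 883 for Gm24497 in replicate 1, but 20.4 for Gm26316, so the split was uncertain for the first 2 of these and less so for the last. U1 counts were 0.459 times U2 counts in replicate 1 and 1.22 times in replicate 2, and 0.430 and 1.12 times in the second quantification.

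Per kilobase of annotated length, the median U2 gene stood at 942 CPM in replicate 1 and 822 in replicate 2, and the median U1 gene at 286 and 847. U2 was thus above U1 in replicate 1, and the medians were close in replicate 2. In TPM, which divides by the effective length, Rnu1a1 stood at 6543 in replicate 1 and 10177 in replicate 2 (mean 8360 ± 2569, SD, n = 2) and Rnu2-10 at 10325 and 5332. Rnu1a1 has 164 bases and effective lengths of 8.70 and 11.0 bases, and its log2 ratio of replicate 1 over replicate 2 was -1.32 on counts and -0.64 on TPM. On the TPM scale the median log2 ratio over 15598 genes was 0.35, against -0.0016 for scaled counts, and the TPM ratios of all members include that shift.

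Rnu12 had 58 counts in replicate 1 and 10 in replicate 2, whereas the second quantification listed 419 and 469. Its scaled log2 ratio of replicate 1 over replicate 2 was 2.42 in the first and 0.09 in the second quantification. The difference between the replicates was thus not shared by both tables. Gm24265 had 521 counts in replicate 1 and 175 in replicate 2, and its neighbour Gm24407, on the same strand of chromosome 5, had 259 and 64. Both numbered snRNAs were higher in replicate 1, with 891 and 682 counts for Gm24265 and 382 and 162 for Gm24407 in the second quantification. These are the only 2 numbered snRNA members and hold the Sm-type letters. Neither matched a named mouse gene under the rule above, so both stayed without a class. The classes used here include no U4, and whether either gene is a U4 gene was not tested.

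U3, the C/D RNA that pairs with the ribosomal precursor, made up 10 of 14 C/D annotations. Each U3 gene is annotated under 2 overlapping identifiers of nearly one length, so the 10 annotations stand for 5 genes. Summed over both, Rnu3a on chromosome 10 had 315 counts in replicate 1 and 68 in replicate 2. The 4 Rnu3b genes on chromosome 11 had 626 and 921 counts together. Rnu3a was thus higher in replicate 1 and Rnu3b in replicate 2, and the Rnu3b counts were 1.99 times those of Rnu3a in replicate 1 and 13.5 times in replicate 2. In the second quantification that ratio was 2.46 and 6.85. One Rnu3a identifier was listed with 120 counts in replicate 1 and 0 in replicate 2, but the other overlaps it, so no fold is given. All U3 together held 0.00517% of the counts of replicate 1 and 0.00530% of those of replicate 2.

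The 4 other C/D members had more counts in replicate 1 than in replicate 2. Snord17 had 535 counts in replicate 1 and 175 in replicate 2, and lies in an intron of Snx5. Snord22 (U22), which is required for processing of 18S ribosomal RNA in frog oocytes, had 315 and 18.8 counts. It lies in Snhg1, a noncoding host of several C/D snoRNAs, where the annotation has an exon over it. Snord15b, over an exon of the ribosomal protein gene Rps3, had 186 counts in replicate 1 and 55.7 in replicate 2, and Snord15a, in an intron of the same gene, had 142 and 49. Their log2 ratios ran from 1.47 for Snord15a to 3.96 for Snord22.

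H/ACA members held 0.00759% of the counts of replicate 1 and 0.00172% of those of replicate 2, and all 7 had the higher scaled count in replicate 1. The 3 relatives of U17 led the class, with 991 counts in replicate 1 and 182 in replicate 2. Snora73b had 456 and 89.3 counts in an intron of Rcc1, and Snora73a, which differs by 7 substitutions, had 421 and 72.3 counts at an exon of Snhg3. Gm26448, in an intron of Rpsa and 89.1% identical to Snora73b, had 114 counts in replicate 1 and 20 in replicate 2. Snora74a had 302 and 97.0 counts and Snora68 had 39.6 and 4.74. The counting intervals of the ratios of these 5 genes lay above 0. Snora81 (33.0 and 27.9 counts) and Snora23 (15 and 9 counts) were at the low end, and their intervals reached below 0. In the second quantification the log2 ratio was -0.11 for Snora81 and -0.26 for Snora23, so their direction was not shared by both tables.

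Cajal-body members held 0.137% of the counts of replicate 1 and 0.145% of those of replicate 2, close to the share of U2. Gm22009, annotated as a scaRNA of 343 bases in an intron of the importin gene Kpna4, had 12019 counts in replicate 1 and 20868 in replicate 2. It had the most counts of all 75 members in both libraries, and 1926 CPM per kilobase in replicate 1 and 3259 in replicate 2. Scarna10 (U85), which guides modification of U5 in human and fly, had 5066 and 2434 counts at an exon of Ncapd2, a condensin gene. Scarna2, which overlaps no other annotated gene, had 5042 counts in replicate 1 and 2239 in replicate 2. Gm22009 was thus higher in replicate 2, and Scarna10 and Scarna2 in replicate 1.

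Gm25395 and Scarna6, both in introns of the autophagy gene Atg16l1, had 1216 and 525 counts in replicate 1 and 589 and 174 in replicate 2. Scarna13 had 919 counts in replicate 1 and 754 in replicate 2. Its host, the noncoding RNA gene Snhg10, had 0 and 4 counts, so the host was near 0 in both libraries. Gm26083 had 53.5 and 46.0 counts, and Gm22442 had 12 and 11, but 342 and 189 in the second quantification. Scarna3a (7 and 1 counts) and Scarna3b (0 and 2 counts) stayed below the minimum, and Scarna8, Scarna9 and Scarna17 had 0 counts in both libraries. Scarna9 and Scarna17 had an effective length of 0, at which a count of 0 does not show absence. In the second quantification Scarna9 had 22 and 23 counts, Scarna17 18 and 24, and Scarna8 4 and 2. Scarna3a had 21 and 15.8 counts there, and Scarna3b 35 and 27.

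Among the 14 numbered snoRNA members, Gm22988 had the most counts, 402 in replicate 1 and 2186 in replicate 2. It has 144 bases and lies in Eif4a1, a translation factor gene, over an annotated exon. Gm25291, Gm24727 and Gm25117 are of the same length and differ from it by 4, 9 and 13 substitutions, and lie in introns of Sec24a, Gsr and Nap1l1. Summed over these 4 genes the counts were 445 in replicate 1 and 2321 in replicate 2, a log2 ratio of -2.44 (95% counting interval -2.59 to -2.30). Gm25291 had 13 counts in replicate 1 and 78 in replicate 2, Gm24727 had 8 and 38, and Gm25117 had 22 and 19. Reads may be shared among the 4. Gm25835, of the same length in an intron of Eif4a1, had 148 and 8 counts, so Gm22988 and Gm25835 differed in direction within a single host. The second quantification listed Gm25835 at 264 counts in replicate 1 and 113 in replicate 2, and its log2 ratio there was 1.48, against 4.07 in the first.

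Between the libraries, counts were scaled with TMM factors over all genes. A member was called apart when its scaled counts differed by more than 2-fold and the exact 95% counting interval of the log2 ratio excluded 0. By this rule 25 of 75 members (33.3%) were higher in replicate 1, against 3.69% of all 15598 genes with 20 or more summed counts, and 21 members (28.0%) were higher in replicate 2, against 4.35% of all genes. The members' median log2 ratio was 0.15, against -0.0016 for all genes. Among all genes the share was larger at low counts, with 7.55% and 10.8% of genes with summed counts from 20 to under 100. In that range 4 of 14 members were called higher in each replicate. From 100 to under 1000 counts the share was 2.81% and 2.92% of genes, and 19 and 4 of 34 members were called. At 1000 or more it was 1.79% and 1.18% of genes, and 2 and 13 of 27 members. Identical copies were counted singly here: with 1 member per sequence, 25 of 55 were higher in replicate 1 and 11 in replicate 2, and the median was 0.98. TPM shifts all genes toward replicate 1 and divides by effective lengths whose median over members was shorter in replicate 1. On TPM, 31 members (41.3%) were more than 2-fold higher in replicate 1 and 9 (12%) in replicate 2. Over all genes the shares were 10.2% and 1.83%.

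The direction differed between and within classes. On scaled counts all 18 U1 annotations were higher in replicate 2 and called, at a median log2 ratio of -1.32 and a summed ratio of -1.60 (95% counting interval -1.63 to -1.57). Identical copies share their reads and are not separate measurements, and the median is the value of Rnu1a1 and its 6 identical copies. All 18 were also higher in replicate 2 on TPM and in the second quantification, but on TPM only 6 of 18 were more than 2-fold higher, with Rnu1a1 at -0.64 and Rnu1b6 at -0.33. In the second quantification Gm24924 at -0.87 and Rnu1b6 with its 2 copies at -0.33 were less than 2-fold apart, and with DESeq2 size factors Rnu1b6 stood at -0.98. U2 had a median of 0.33 and a summed ratio of -0.18, with 3 of 11 members called higher in replicate 1 and 0 in replicate 2. The sum and the median differ in sign because the variants with high counts were higher in replicate 2. H/ACA members had a median of 2.29, with 5 of 7 called higher in replicate 1. C/D members had a median of -0.59, set by the 8 Rnu3b annotations, and 6 of 14 were called higher in replicate 1. Cajal-body members had a median of 0.61, with 7 of 8 above 0 and 2 called higher in replicate 1, and a summed ratio of -0.19 because of Gm22009. Numbered snoRNAs had a median of 0.94, with 6 called higher in replicate 1 and 3 in replicate 2. Medians were the same with the members at 0 in 1 library set to the bound that 3 counts allow.

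**Figure D3:**
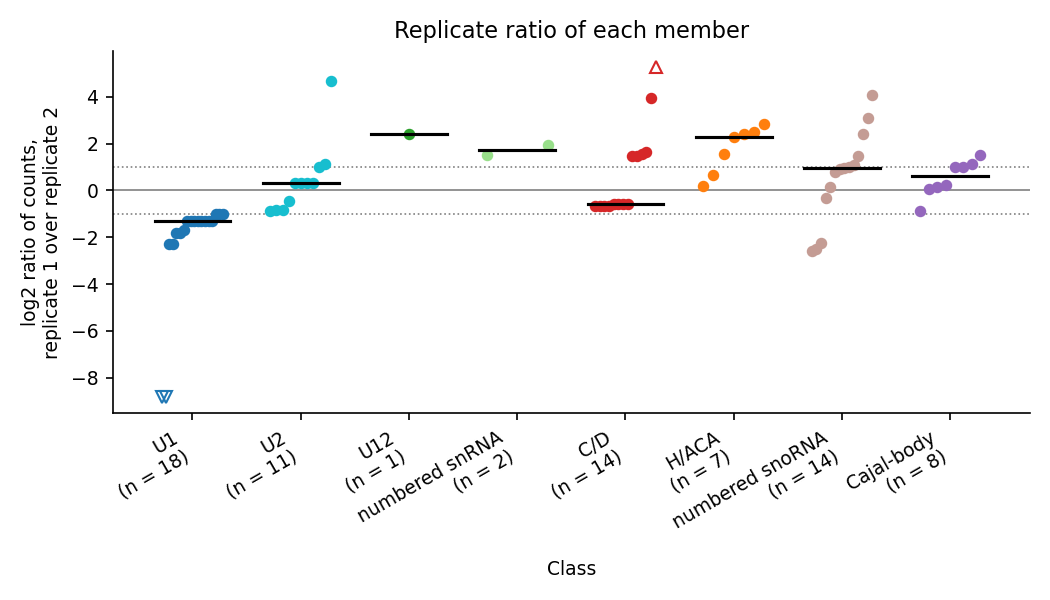
log2 ratio of scaled counts, replicate 1 over replicate 2, of each of the 75 members by class; black bars are class medians, dotted lines mark 2-fold, and open triangles are members with 0 counts in 1 library, drawn at the bound from 3 counts. Identical copies are drawn singly. On this scale all 18 U1 points lie below -1 (median -1.32), which on TPM holds for 6 of them, and all 7 H/ACA points above 0 (median 2.29).

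Of the 75 members, 34 lay in an intron of a gene on the same strand, 14 overlapped an exon of one, and 27 overlapped no other gene. Where a member overlaps an exon, its reads and those of the host cannot be told apart. Members at host exons had a median log2 ratio of 1.28, those in host introns -0.51 and those outside genes -1.01. These groups differed in class: 24 of the 27 members outside genes and 8 of the 34 in introns were snRNAs. The 8 Rnu3b annotations, which include identical copies, also lay in introns. Contexts were not compared within a class, so context and class cannot be told apart in these medians. Host ratios were available for 31 snoRNA and Cajal-body members in 27 hosts with 20 or more counts. Their median ratio was 1.01, against -0.04 for the hosts, whose ratios ran from -0.74 to 0.62. Of these 31 members 26 had a larger ratio than their host, and 19 members and 0 hosts were more than 2-fold apart by the rule above. For example, Scarna6 had a log2 ratio of 1.53 in Atg16l1, which had 0.21, and Snora73a had 2.48 in Snhg3, which had -0.34. Across the 31 pairs Spearman's rho was 0.0157 for ratios and 0.0424 for levels in CPM, as a description over genes that share libraries and, in part, hosts.

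**Figure D4:**
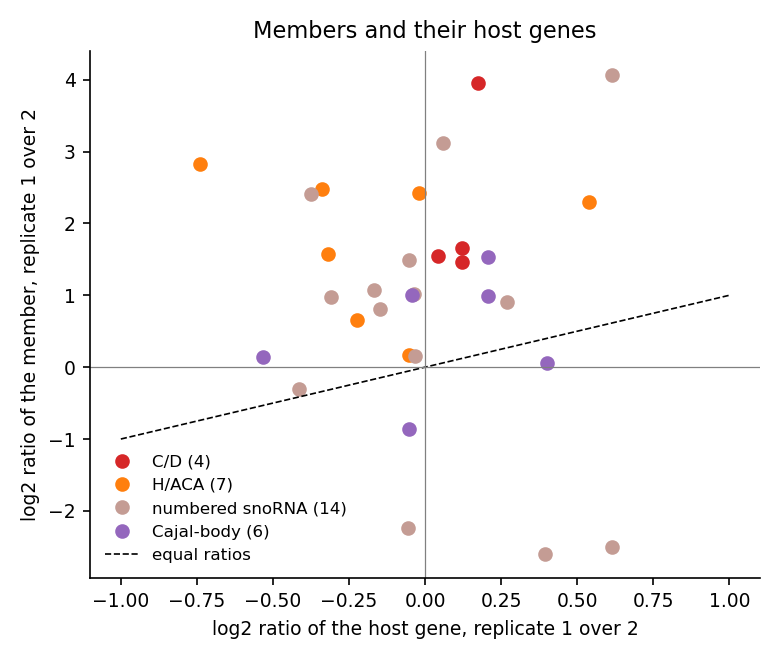
log2 ratio of replicate 1 over replicate 2 for 31 snoRNA and Cajal-body members (vertical axis) and for their host genes (horizontal axis), coloured by class, with the line of equal ratios. Hosts lie between -0.74 and 0.62, and 26 of the 31 members lie above the line.

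A second deposited quantification of the same reads, made per transcript, gives these RNAs other counts and is no replicate. There 376 of the 2941 genes reached 20 summed counts, and 70 of the 75 members were among them, which is 93.3% of members and 18.6% of the 376. The 5 missing members were one of the 2 identifiers of each U3 gene, listed at 0 there. Spearman's rho between the tables over the 75 members was 0.913 for replicate 1 and 0.870 for replicate 2. Without any correction for the median difference of the tables, 17 members in replicate 1 and 27 in replicate 2 were more than 2-fold apart between them. That difference was 0.27 in replicate 1 and 0.49 in replicate 2 on the log2 scale, with the second quantification higher. U1 again had fewer counts in replicate 1 (14651) than in replicate 2 (44845), and H/ACA members again more (1576 against 597).

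The 306 genes that reached 20 counts in the second quantification alone included 55 U6, 45 H/ACA, 21 C/D, 16 Cajal-body, 7 U1, 4 U5, 71 numbered snRNA and 87 numbered snoRNA genes. Of these, 162 had an effective length of 0 in both libraries of the first. Rnu5g stood at 40.9 counts in replicate 1 and 82.7 in replicate 2 there, Snord118 at 27 and 47.0, and Snord13 at 11 and 14. Snora31 had 194 and 239 counts there, against 0 and 0 in the first. Rnu6, Rnu7 and Rnu11 were listed at 0 in both tables and both libraries.

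**Figure D5:**
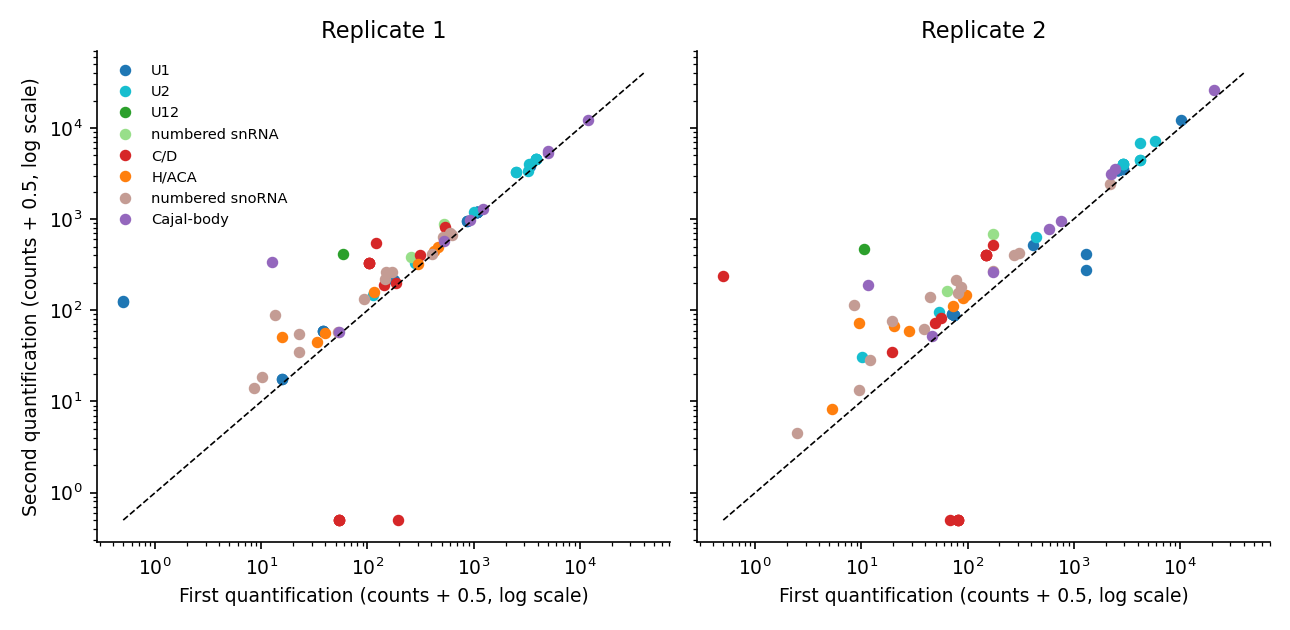
Counts of the 75 members (plus 0.5, log scales) in the first (horizontal axis) and second (vertical axis) quantification, for replicate 1 (left) and replicate 2 (right), coloured by class, with the line of equality. Points at 0 in the second table are 5 U3 annotations, and Rnu12 lies far above the line in both libraries.

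Genes for the proteins that bind or make these RNAs were mostly present. In 10 lists of snRNP and snoRNP proteins, 72 of 75 genes reached 1 TPM in both libraries, against 12770 of all 55536 genes. List medians ran from 2.26 to 14.97 TPM in replicate 1 and 1.96 to 12.5 TPM in replicate 2. Single genes stood higher, such as Snrnp70 at 157 TPM in replicate 1 and 108 in replicate 2. Median log2 ratios ran from -0.36 for the H/ACA core to 0.17 for genes of U6 maturation. Of the 75 genes, 1 was called higher in replicate 1 and 2 in replicate 2, against 3.69% and 4.35% of all genes. These were Sm ring genes: Snrpb had 172 counts in replicate 1 and 77 in replicate 2, Snrpd1 had 55 and 107, and Snrpd3 had 43 and 101. Dkc1, the pseudouridine synthase of H/ACA particles, had 245 and 318 counts.

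The libraries had the markers of macrophages, with 10 of 10 genes at 1 TPM or more. No listed marker of neutrophils (5), B cells (4), erythroid (4) or stromal cells (4) reached 1 TPM, and of 5 T and NK cell markers Cd4 alone did, at 33.7 TPM in replicate 1 and 32.5 in replicate 2. RNA input differed along with the replicate number, so input and replicate cannot be told apart in any ratio above.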

How the data were processed

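Nucleoplasmic RNA of 2 libraries was analysed. The authors deposited, per library, a gene table with expected counts, TPM and FPKM, whose column names are those RSEM writes, per the file headers. They also deposited a transcript table with estimated counts and TPM in the column format of kallisto. Notes in the deposit name mm10 and GENCODE M21. The sources used here give no aligner settings, program versions, filters or strand setting, so reads of a member and of an overlapping gene may be mixed. The deposited RSEM-type transcript tables were not used.

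Members had a transcript of type snRNA, snoRNA or scaRNA and 20 or more summed expected counts. The members and gene lists were chosen with earlier results of these data known. Numbered genes were classed with blastn 2.17.0, at 80% identity or more over 80% of the length. After rounding to whole numbers, expected counts were scaled by TMM (edgeR 4.0.16, R 4.3.3). For log2 ratios of these counts 0.5, scaled by library size, was added to each count, and intervals are exact binomial ones at 95%. This step was checked on simulated counts. Other steps used Python 3.11.15, pandas 2.3.3, numpy 2.4.6, scipy 1.17.1 and matplotlib 3.10.9.

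The text names every member with an Rnu symbol, the 8 highest and the 2 lowest C/D, H/ACA and Cajal-body members by mean CPM, the 5 highest numbered members, the 5 largest ratios in each direction at a mean scaled count of 50 or more, 3 members on each side of the minimum, and U3, U8, U13, U17, U22 and U85 relatives. Other genes, such as Gm24265, Gm24407, identical copies, relatives of Gm22988, undetected genes, Snora31, Snrpb, Dkc1 and Cd4, were named after their values were seen. Alternatives were size factors of DESeq2 1.42.0, ratios on library totals and on TPM, FPKM, posterior means, other minimums, a prior count of 5, the second quantification, leaving out members at host exons and leaving out each replicate. CPM per kilobase, 1 member per sequence and bounds for counts of 0 were chosen after seeing the data. With 1 group there was nothing to test between groups.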

Additional observations from a re-analysis of the deposited data

How the results depend on the processing

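The number of detected genes was 188 with no minimum and 376 in the second quantification, against 75. It was 68 without replicate 1 and 78 without replicate 2. At a minimum of 20 in a single library it could not exceed 75, so these numbers rest on a lower minimum. They do not show how stable the set is when a replicate is left out. The share of counts of all members lay between 0.403% and 0.541% when a replicate was left out. The median TPM of members was 604, and 148 in the second quantification, 351 without replicate 1 and 856 without replicate 2. The members' median log2 ratio was 0.15 for replicate 1 over replicate 2, and -0.59 without members at host exons. The 14 members left out had a median of 1.28. The value of -0.59 is that of identical Rnu3b annotations, each counted singly. With 1 member per sequence, and members at host exons kept, the median was 0.98. The Cajal-body share was 0.141%, against 0.110% in the second quantification and 0.120% without members at host exons. For numbered snoRNAs it was 0.0166%, against 0.0146% and 0.00266%. Members over 2-fold higher in replicate 2 numbered 21, against 9 with TPM ratios, on a scale that shifts all genes toward replicate 1, and 11 with 1 member per sequence, where identical U1 copies count once. Of 47 ratios of named members, 31 moved by more than their counting interval with TPM ratios, 28 in the second quantification, 8 with library totals and 0 with DESeq2 size factors. No paired analysis was possible because there is 1 group. With effective lengths of a few bases and identical copies, single-gene TPM values are uncertain, and in the gene tables no gene of up to 125 bases reached 20 counts.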
